A study of Mus musculus with 4 samples.

Results

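Genes of 7 proteins tied to menin-linked or Sin3-linked repression were followed in mouse embryonic fibroblasts that lack Men1, the gene of menin. The genes were Foxk1, Foxn3, Sin3a, Hdac1, Hdac2, Daxx and Prmt5, out of 8251 genes named on the array. The members were all probe sets whose platform annotation gives exactly 1 of these symbols, 8 of the 12422 tested. A probe set is a group of short oligonucleotides that are read together as 1 signal. Foxk1 was chosen by its signals. On the scale of log2(signal + 16), its probe set had the largest difference between the groups of arrays. Its difference and those of the other members are therefore given as a description, without a test. The other 6 genes were taken for what their proteins are known to do, though with earlier results of these data known.

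The series holds 4 Affymetrix arrays. In 2 of them the RNA came from Men1 knockout fibroblasts into which Men1 had been returned, called Men1-complemented below, and in 2 from Men1 knockout fibroblasts given vector. Both groups carry the knockout and a mixed FVB;129Sv background. Cells of both groups were kept in 10% serum, plated at a density of 70% and collected 24 h later. The labels give neither the way Men1 was returned nor whether the cells were clones or separate cultures, so the spread between arrays of a group may be technical.

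Menin is a scaffold in the nucleus that joins histone methyltransferases at some genes and repressors at others. On the repressive side it was reported to bring the Sin3A and histone deacetylase complex to the transcription factor JunD. Human FOXN3, also called CHES1, was found as a menin partner, and Daxx and the arginine methyltransferase Prmt5 were reported to bind menin as well. Foxk1 and its paralogue Foxk2 are forkhead transcription factors that bring Sin3 complexes to DNA. Foxk1 is known from muscle progenitor cells and from the repression of autophagy genes and the induction of glycolysis.

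Men1 itself, with 1 probe set, had signals of 18.8 and 22.5 in the Men1-complemented group, against 18.1 and 29.5 in the vector group. These groups overlapped, and both Men1-complemented signals lay below the highest of 19 control probe sets for bacterial and yeast sequences whose RNA gave no sign of having been added. That highest control read 25.9 and 27.4 on the Men1-complemented arrays, against 15.9 and 20 on the vector arrays, and it serves below as the control level of each array. Whether the Men1 probe set covers deleted or returned sequence could not be established, so its signals are no check of the labels. Of 13 fibroblast markers, 8 were above the control level on all 4 arrays, including the collagen Col1a1 and the matrix protein Sparc, while Thy1 and Fap were below it on all 4. Epithelial markers Epcam, Krt8, Krt5 and Krt14 were below it on all 4 arrays, as were endothelial Cdh5, Tek and Tie1 and the blood cell markers Ptprc and Itgam. Markers of other cell types that were above it on all 4 arrays were Cdh1, Krt19, Pecam1, Cd74, Cd68, Cd14, Csf1r, Myod1 and Acta1. Summed signals over the fibroblast list were 11338.8 and 10155 with Men1, against 10056.7 and 12171.9 with vector. Those of the muscle list, which includes Myod1 and Myog, were 256.1 and 196.6 with Men1, against 307.2 and 290.1 with vector, without overlap. Of its 7 genes 6 were lower with Men1, but the groups did not overlap for only 1, beside 22.1% of all probe sets. Of the 7 epithelial markers 6 were lower too, with sums of 227.6 and 344.2 with Men1, against 259 and 302.6 with vector, which overlapped. Among all 12422 probe sets 6561 were lower. In the muscle list, as in the epithelial list, only 2 of the 7 genes were above the control level on all 4 arrays. Whether this lower muscle sum has a part in the results for Foxk1 was not tested. In these bulk samples, fewer cells of a type and less RNA per cell cannot be told apart.

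Foxk1 stood apart from the other members. Its probe set, 160969_at, read 86.8 and 72.8 on the Men1-complemented arrays, against 12.5 and 20.1 on the vector arrays. Both Men1-complemented arrays were high and both vector arrays low, with no overlap. Signals averaged 79.8 ± 9.90 with Men1 and 16.3 ± 5.37 with vector (SD, n = 2 each), a ratio of means of 4.90. On the scale of log2(signal + 16), on which all differences below are given as Men1-complemented minus vector, the values were 6.68 and 6.47, against 4.83 and 5.17. The difference was 1.57 with a standard error (SE) of 0.21 from the limma fit across all probe sets, a 2.98-fold difference on that scale. On that scale it was the largest in size of the 12422 probe sets. The next largest was 1.43 in a probe set whose groups overlapped. The 3rd was -1.40, in a probe set without a single gene symbol, whose groups did not overlap. Foxk1 held the top rank with the added 16, but not with 1 or 64 in its place. With 64 the brighter Idi1 differed more than Foxk1, and with 1 the dim Sim2 did, both lower with Men1.

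The distance between the groups exceeded the spread within them. Foxk1 was chosen for its large difference, so this is a description and no independent support. The closest arrays of different groups were 1.30 apart on the log2 scale, whereas the replicates of Foxk1 were 0.21 apart with Men1 and 0.34 apart with vector. These gaps are close to the medians over all probe sets, 0.20 with Men1 and 0.31 with vector. The vector signals lay around the control level. Replicate 1 was below its control (12.5 against 15.9) and replicate 2 just above its own (20.1 against 20). The size of the fold is therefore uncertain at the low end. Choosing the largest difference also tends to overstate its size. With each vector signal raised to its control level where it was lower, the fold on the log2(signal + 16) scale was 2.82. With a pseudocount of 1 in place of 16 the log2 difference was 2.25, and with 64 it was 0.84. Foxk1 was represented by this single probe set, so no other part of its transcript was available to set beside it.

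**Figure D1:**
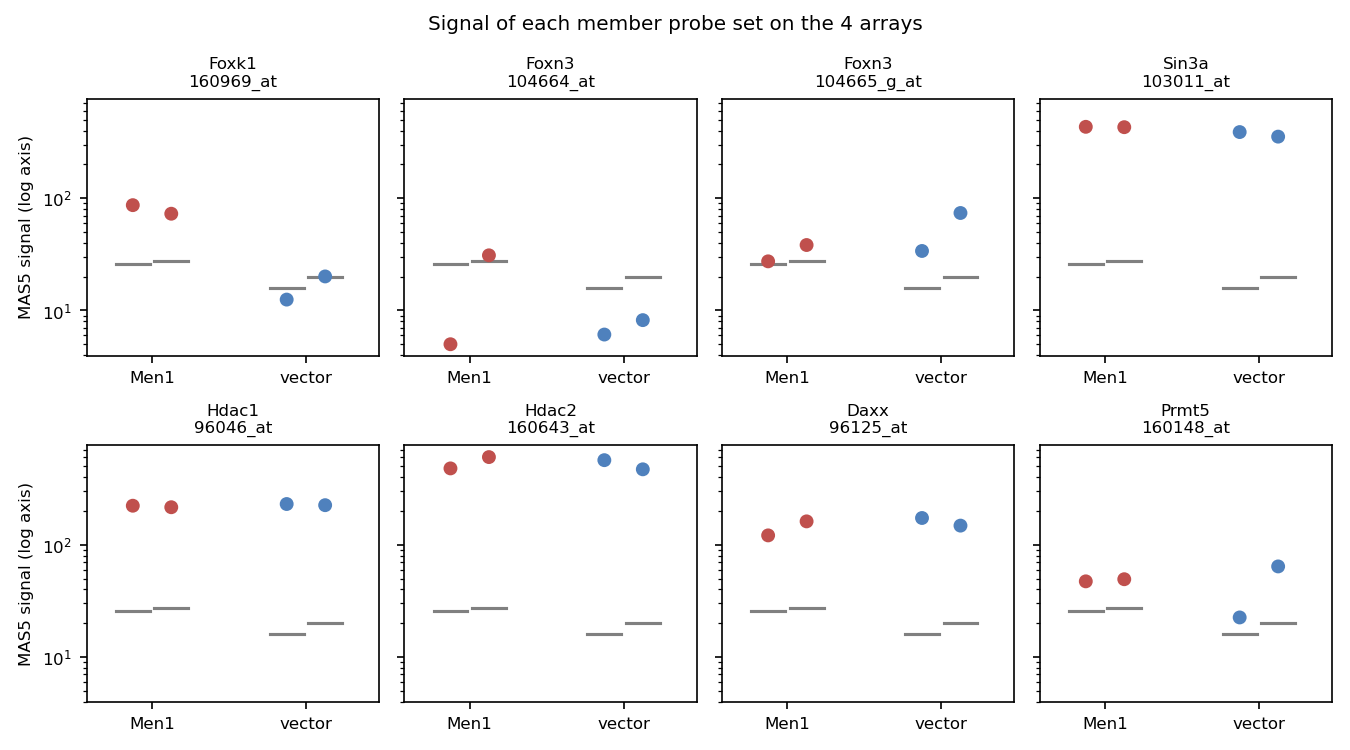
MAS5 signal on a log axis for each of the 8 member probe sets. Red points are the 2 Men1-complemented arrays and blue points the 2 vector arrays, and each grey bar is the highest of 19 unspiked control probe sets on that array. Foxk1 lies at 86.8 and 72.8 with Men1, against 12.5 and 20.1 with vector, while Sin3a, Hdac1, Hdac2 and Daxx lie well above the controls at similar signals in both groups.

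Foxk2, the paralogue of Foxk1, showed no such separation. The brighter of its probe sets read 267.3 and 228.5 with Men1, against 317.9 and 173.2 with vector, so the vector arrays enclosed the Men1-complemented ones. The difference was 0.07 (SE 0.32). The dimmer one read 15.9 and 11.8 with Men1, against 7.4 and 22.4 with vector, and was above the control level on 1 of the 4 arrays.

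Foxn3, the other forkhead factor among the members, had 2 probe sets, which went in opposite directions. Probe set 104665_g_at read 27.4 and 38.3 on the Men1-complemented arrays, against 33.9 and 73.9 on the vector arrays, a difference of -0.46 (SE 0.34). These values overlapped, and the vector replicates were 0.85 apart on the log2 scale. The difference was -0.04 without vector replicate 2 and -0.89 without vector replicate 1. Probe set 104664_at read 5 and 31 on the Men1-complemented arrays, against 6.1 and 8.2 on the vector arrays, a difference of 0.44 (SE 0.41). Only 1 of its 4 signals was above the control level, that of Men1-complemented replicate 2. Without that array the sign turned (-0.14), so the 104664_at values give no direction for Foxn3.

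Sin3a, the scaffold on which the Sin3 corepressor complex is built, read 433.2 and 430 on the Men1-complemented arrays, against 389 and 354.2 on the vector arrays. Both Men1-complemented signals were above both vector signals. Signals averaged 431.6 ± 2.26 with Men1 and 371.6 ± 24.6 with vector (SD, n = 2 each). The difference was 0.21 (SE 0.17), a ratio of means of 1.16, and ranked 3869th in size. It was positive in each setting run, between 0.14 and 0.27. Groups did not overlap for 22.1% of all probe sets, 10.4% higher and 11.7% lower with Men1, so a separation like that of Sin3a was common on these arrays.

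Hdac1 and Hdac2, the deacetylases that give this complex its enzymatic activity, each read nearly the same in both groups. Hdac1 read 222.8 and 216 with Men1, against 230.7 and 225.3 with vector. Its groups did not overlap, yet the difference was -0.05 with an SE of 0.17, the smallest in size of any member. All 4 Hdac1 signals lay within 1.07-fold of each other, a range smaller than that of all but 2.62% of probe sets. Scaling each array to its 75th percentile made the Hdac1 groups overlap. Hdac2 read 479.2 and 604.5 with Men1, against 567.5 and 470.3 with vector. The groups overlapped, and the difference was 0.06 (SE 0.21), with a gap between replicates of 0.33 with Men1 and 0.26 with vector.

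Daxx, a chaperone of a variant histone and a partner of Atrx, read 121.2 and 161.6 with Men1, against 173.2 and 148.1 with vector. These overlapped, and the difference of -0.17 (SE 0.22) was smaller than the 0.37 between the Men1-complemented replicates. Prmt5, which places symmetric methyl marks on histone arginines, read 47.2 and 49.3 with Men1, against 22.5 and 64.1 with vector. The Men1-complemented arrays were close together and lay between the vector arrays, which were 1.06 apart on the log2 scale. The difference of Prmt5 was 0.21 (SE 0.38), and it turned to -0.32 without vector replicate 1. The gap between replicates was thus larger than the difference between groups in both groups for Daxx, and in the vector group only for Prmt5.

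**Figure D2:**
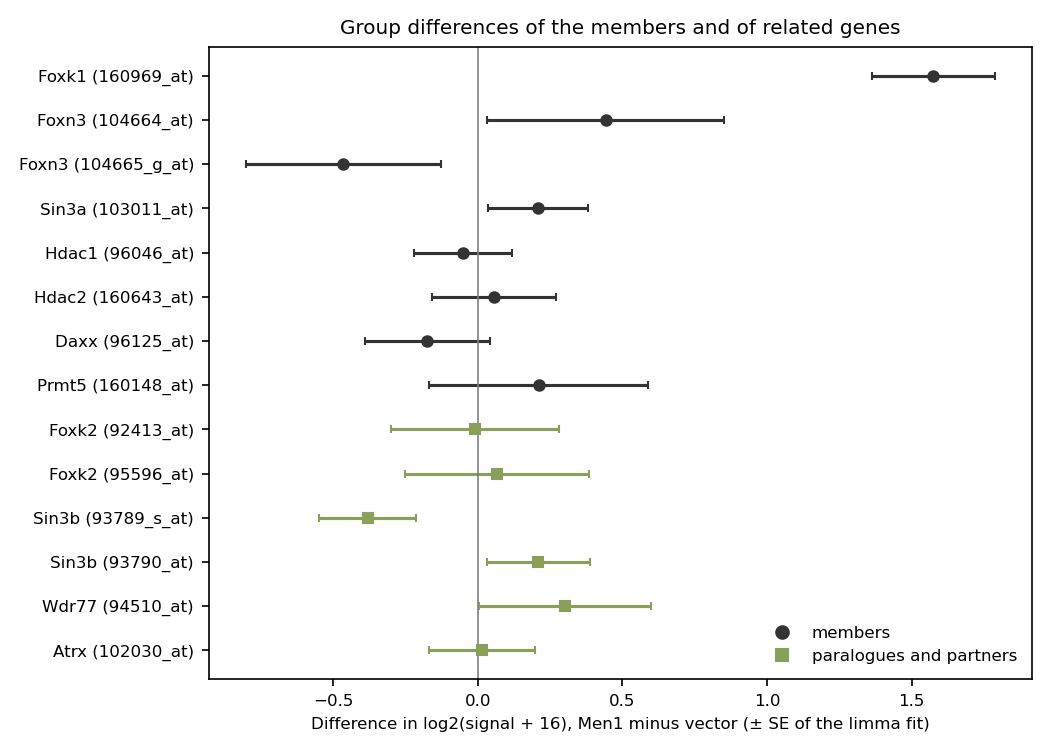
Difference in log2(signal + 16), Men1-complemented minus vector, for the 8 member probe sets (circles) and for paralogues and partners (squares), with the SE of the limma fit as bars. Foxk1 lies at 1.57, and the other members lie between -0.46 and 0.44.

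Counted together, 5 member probe sets were higher and 3 lower with Men1, with a median difference of 0.13, against a median of -0.01 over all probe sets. Without Foxk1, which was chosen for its difference, the median of the other 7 was 0.06. Groups did not overlap for 3 of the 8, Foxk1 and Sin3a higher and Hdac1 lower. Since Foxk1 was chosen on this contrast, nothing is read from these counts or medians beside the 22.1% of all probe sets. Signals of 6 of the 8 were above the control level on all 4 arrays, as were those of 7217 of all 12422 probe sets. The exceptions were Foxk1, which was above it on both Men1-complemented arrays and 1 vector array, and 1 Foxn3 probe set. A filter for signals above the control level on both arrays of at least 1 group left 7 of the 8. It left 8152 of all 12422 probe sets, and Foxk1 passed only through its Men1-complemented arrays. Of all 12422 probe sets, 0 (0%) passed limma at an adjusted p under 0.05, and the smallest adjusted p was 1. There were 233 probe sets (1.88%) at an unadjusted p under 0.05. With 2 arrays against 2, a permutation of arrays allows no p below 0.333.

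The Sin3 complex was examined as a wider list that includes the members Sin3a, Hdac1 and Hdac2, with each gene represented by its brightest probe set. Of 21 listed genes 13 were measured, 5 higher and 8 lower, with a median of -0.05 and 0 past the adjusted threshold. Groups did not overlap for 6 of them, 1 higher and 5 lower, where 22.1% of all probe sets did not overlap, 10.4% higher and 11.7% lower. The 1 higher was the member Sin3a, and the member Hdac1 was among the 5 lower. Sin3b, the other Sin3 scaffold, which Foxk1 is known to bind, had 2 probe sets that separated the groups in opposite directions. The brighter read 236.9 and 243.7 with Men1, against 313.3 and 322.1 with vector, a difference of -0.38 (SE 0.17). The dimmer read 73.4 and 83.7 with Men1, against 68 and 63.3 with vector, a difference of 0.21 (SE 0.18). The data therefore give no single direction for Sin3b.

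Among the other subunits, the largest differences were those of Rbbp4, a histone-binding protein, and Sinhcaf, a Sin3-associated factor. Rbbp4 read 632.5 and 904.9 with Men1, against 943.8 and 999.6 with vector (difference -0.35, SE 0.23). Sinhcaf read 217.8 and 200.7 with Men1, against 316.1 and 233.1 with vector (difference -0.35, SE 0.22). Neither gene's groups overlapped. Sap30l, a paralogue of the Sin3-associated protein Sap30, differed by -0.22 (SE 0.27) and Phf12, a chromatin reader, by 0.11 (SE 0.21), both with overlap. Kdm5a was below the control level on all 4 arrays.

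Genes of other deacetylase complexes had differences near their SE or below it. In the NuRD, CoREST and NCoR list 11 of 19 genes were measured, 7 higher and 4 lower, with a median of 0.03 and 0 past the threshold. Mta2, a NuRD subunit, read 347.2 and 329.1 with Men1, against 290.5 and 301.8 with vector (difference 0.18, SE 0.17). Chd4, the remodelling ATPase of NuRD, differed by 0.16 (SE 0.18), and Rcor1, the scaffold of CoREST, by 0.18 (SE 0.26). Hdac3, the deacetylase of NCoR, read 163.9 and 183.8 with Men1, against 208.9 and 197.1 with vector, a difference of -0.21 (SE 0.18). Of 7 measured deacetylases other than Hdac1 and Hdac2, 2 were higher and 5 lower, with a median of -0.02 and 0 past the threshold. Differences of the cytoplasmic deacetylase Hdac6 (-0.13) and of the class II enzymes Hdac5 (-0.02) and Hdac7 (0.07) were within their SE.

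In the forkhead family, 26 of 44 genes were measured and 10 of these were below the control level on all 4 arrays. Differences were positive for 13 and negative for 13, with a median of -0.01 and 0 past the adjusted threshold. Foxj1, a regulator of motile cilia, was the gene farthest from 0 after Foxk1 and lay in the opposite direction. It read 39.3 and 48.5 with Men1, against 81.8 and 114.4 with vector, above the control level on all 4 arrays. The difference was -0.92 (SE 0.23), with an unadjusted limma p of 0.0101 and an adjusted p of 1. Foxc2, a mesenchymal forkhead factor, read 101.6 and 206.2 with Men1, against 95.4 and 87 with vector, a difference of 0.59 (SE 0.34). A second Foxc2 probe set differed by 0.39 (SE 0.34), with overlap. Foxp1 was higher without overlap in both of its probe sets, by 0.22 (SE 0.19) and 0.14 (SE 0.18), differences close to their SE. Foxl1 differed by -0.39 (SE 0.34), with overlap.

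Partners of Prmt5 and Daxx were examined in the same way, with Prmt5 and Daxx themselves in the counts. Of 13 arginine methyltransferases and Prmt5 cofactors 8 were measured, 4 higher and 4 lower, with a median of 0.0011 and 0 past the threshold. Wdr77, the obligate partner of Prmt5, read 752.2 and 690.9 with Men1, against 760.1 and 443.6 with vector, a difference of 0.30 (SE 0.30) with overlap. Carm1, which places asymmetric methyl marks, read 868.7 and 829.5 with Men1, against 749.2 and 659.5 with vector, a difference of 0.27 (SE 0.18) without overlap. Prmt3 and Prmt1 differed by -0.19 (SE 0.20) and -0.11 (SE 0.22), and the Prmt5 adaptor Coprs by -0.11 (SE 0.24) in the brightest of its probe sets.

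The list of Daxx and genes linked to it or to heterochromatin held 22 genes. Of these 14 were measured, 8 higher and 6 lower, with a median of 0.05 and 0 past the threshold. Atrx, the remodelling partner of Daxx, differed by 0.02 (SE 0.18). Hipk2, a kinase known to bind Daxx, read 406.1 and 326 with Men1, against 288.3 and 269.4 with vector, a difference of 0.37 (SE 0.20) without overlap. Sumo3, a modifier that Daxx binds, read 834.5 and 845.8 with Men1, against 960.2 and 955 with vector, a difference of -0.19 (SE 0.17) without overlap. The heterochromatin protein gene Cbx5 differed by 0.21 (SE 0.20) and -0.12 (SE 0.18) in its probe sets. Setdb1, a histone methyltransferase, differed by -0.22 (SE 0.41).

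Genes reported as regulated by Foxk1 or Foxk2 were set beside the Foxk1 signal. Of 24 autophagy genes 19 were measured, all above the control level on all 4 arrays, with 10 higher and 9 lower, a median of 0.04 and 0 past the threshold. Groups did not overlap for 8 of them, 3 higher and 5 lower, beside 10.4% higher and 11.7% lower among all probe sets. Atg7, an activating enzyme of autophagosome formation, read 74.7 and 98.9 with Men1, against 68.1 and 65.7 with vector (difference 0.30, SE 0.20). Uvrag, a regulator of the autophagy lipid kinase, read 214.6 and 203.1 with Men1, against 258.2 and 256.3 with vector (difference -0.28, SE 0.17). Map1lc3a, a component of the autophagosome membrane, differed by -0.27 (SE 0.23) without overlap, and Atg16l1 by 0.42 (SE 0.37) with overlap. The differences of the autophagy genes lay on both sides of 0. Whether Foxk1 has a part in them was not tested.

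Of 17 other Foxk targets and partners 15 were measured, 9 higher and 6 lower, with a median of 0.02 and 0 past the threshold. Hk2, the inducible hexokinase, read 569.4 and 544.1 with Men1, against 522.2 and 336 with vector, a difference of 0.40 (SE 0.26) without overlap. Pfkl, a phosphofructokinase, read 629.6 and 992.2 with Men1, against 618.1 and 613.4 with vector, a difference of 0.35 (SE 0.27) without overlap. Of the other glycolysis enzymes of the list, Pkm, Ldha and Hk1 differed by 0.02, 0.06 and 0.02, with overlap. Pfkm, another phosphofructokinase, read 160.3 and 146.6 with Men1, against 167 and 164.4 with vector, a difference of -0.10 (SE 0.17) without overlap. The cell cycle inhibitor Cdkn1a, which Foxk1 was reported to repress in muscle progenitors, read 1337.8 and 1139.2 with Men1, against 1376.6 and 952.7 with vector. These overlapped (difference 0.11, SE 0.25). Dvl2, a Wnt signalling protein that Foxk factors carry into the nucleus, differed by -0.19 (SE 0.17) without overlap, and Mef2d, a muscle transcription factor, by 0.27 (SE 0.34) with overlap.

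**Figure D3:**
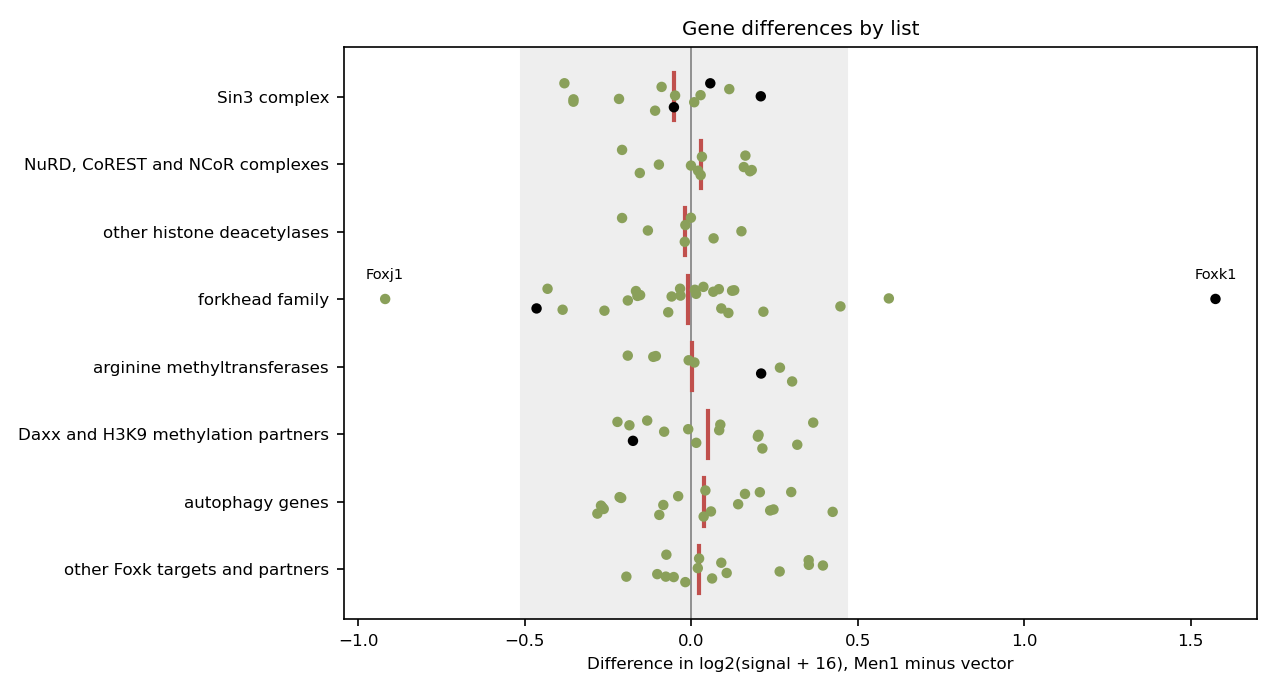
Each point is the difference in log2(signal + 16), Men1-complemented minus vector, of 1 gene in 8 gene lists. Black points are members, red bars are list medians and the grey band holds the central 95% of all probe sets, from -0.51 to 0.47. Foxk1 at 1.57 and Foxj1 at -0.92 lie farthest from 0, and all list medians lie between -0.05 and 0.05.

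Over all lists together, 104 measured genes other than the members were 53 higher and 51 lower, with a median of 0.01. Groups did not overlap for 31 of them (29.8%), against 22.1% of all probe sets, of which 3164 were below the control level on all 4 arrays. An absolute difference of at least 0.5 was reached by 2, Foxj1 and Foxc2. Foxj1 was also the 1 gene of the 104 with an unadjusted limma p under 0.05.

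The genes whose pattern over the 4 arrays was most like that of Foxk1 were found by the distance between log2(signal + 16) profiles, each centred on its own mean. All had high signals on both Men1-complemented arrays and low ones on both vector arrays, which follows from the choice. The closest was Pacsin1, a membrane-bending protein of endocytosis, at a distance of 0.57 over 4 arrays. It read 89.9 and 92.5 with Men1, against 34.1 and 36.6 with vector, above the control level on all 4 arrays. Ascl2, a basic helix-loop-helix transcription factor, read 55.8 and 30.1 with Men1, against 9.9 and 14.1 with vector, at a distance of 0.62. Its vector signals were both below the control level, so its size is uncertain.

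The 3 others were Junb, Lbp and Gtf3c4. Junb, a subunit of the AP-1 transcription factor, read 58.1 and 67.4 with Men1, against 16.7 and 31.9 with vector, at a distance of 0.66. Its brighter probe set read 194.8 and 188.4 with Men1, against 151 and 163.1 with vector, a smaller difference of 0.26 (SE 0.17) in the same direction. Lbp, a lipopolysaccharide-binding protein, lay at a distance of 0.69, with 54.5 and 45.5 with Men1, against 18.1 and 19.8 with vector. Its signal on vector replicate 2 was just below the control level. Gtf3c4, a subunit of a factor for RNA polymerase III, also lay at 0.69. It read 36.9 and 41.1 with Men1, against 10.7 and 15.4 with vector, both vector signals being below the control level. The brighter probe set of Gtf3c4 differed by only 0.0006 (SE 0.20). Among the members, Sin3a was the closest to Foxk1, at a distance of 1.41, with 1401 probe sets closer.

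**Figure D4:**
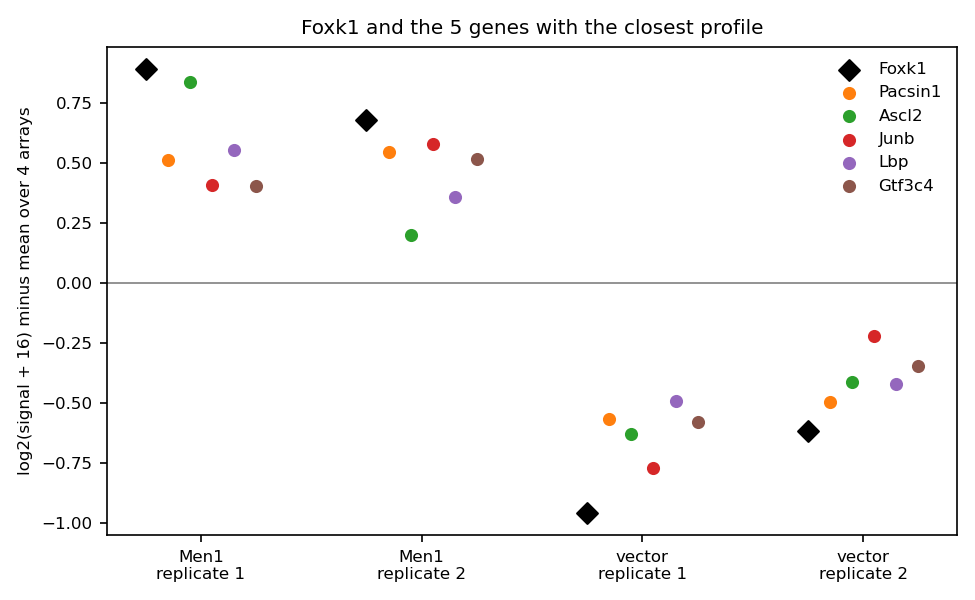
Values of log2(signal + 16) minus the mean over the 4 arrays, for Foxk1 (black diamonds) and the 5 genes with the closest profile (coloured circles), by array. Men1-complemented arrays are on the left and vector arrays on the right. All 6 genes lie above 0 on both Men1-complemented arrays and below 0 on both vector arrays, with Foxk1 farthest from 0 on vector replicate 1.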

How the data were processed

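Per the submitters' processing notes, the authors made the deposited linear probe set intensity with Affymetrix Expression Console and MAS5. Versions and the scaling target are not given in the sources used here. Means trimmed by 2% at each end were 150.07 to 150.08 on all 4 arrays, a sign of scaling array by array. The 75th percentiles spanned 0.067 on the log2 scale, and no further normalization was applied. Of 12488 probe sets, 66 controls were left out. Single symbols were given for 10833, several for 396 and none for 1193; gene IDs of 10817 matched a mouse gene table used for names only.

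Signals were tested as log2(signal + 16) with lmFit and eBayes of limma 3.58.1 (R 4.3.3), as a two-sided test with p-values adjusted by Benjamini-Hochberg over 12422 probe sets and a threshold of 0.05. The median SE was 0.22, with 2 residual and 2.87 prior degrees of freedom, and the number of arrays limits the precision. The script was tested on simulated data.

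Members, gene lists and alternatives were chosen with earlier results of these data known. Named genes were the members, Men1, paralogues and partners (Suv39h1 was not analysed here), up to 4 further genes of each list by size of difference above the control level, the 5 nearest to Foxk1 and the cell type markers. Kdm5a, Cdkn1a, Pkm, Ldha, Hk1, Pfkm and the genes under other observations except Setdb1 lie outside this rule and were named after their values were seen. Sequences are not shown.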

Additional observations from a re-analysis of the deposited data

How the results depend on the processing

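By limma 0 probe sets passed in all 11 alternative settings, and between 121 and 1031 had an unadjusted p under 0.05 (233 in the report). The Foxk1 difference of 1.57 was 2.25 with a pseudocount of 1 and 0.84 with 64, because the pseudocount compresses dim signals, and 1.59 and 1.61 with scaling to the 75th percentile and quantile normalization. Leaving out single arrays gave 1.40 to 1.75, with the lone array of a group assumed to vary like the others. Without Men1-complemented replicate 2 the sign of Foxn3 (104664_at, -0.14) and Hdac2 (-0.11) turned. It also turned for Hdac2 without vector replicate 2 (-0.07), for Daxx without Men1-complemented replicate 1 (0.01) and for Prmt5 without vector replicate 1 (-0.32). The 3 member probe sets without overlap were 2 with scaling to the 75th percentile, where Hdac1 overlapped. With quantile normalization 1 of the 2 Foxn3 probe sets took the place of Hdac1. The Foxn3 probe sets still went in opposite directions there, by 0.45 (104664_at) and -0.48 (104665_g_at), so no direction for Foxn3 follows. Medians of the gene lists stayed between -0.14 and 0.21 in all settings, and 7 of 8 lists changed sign in at least 1. Labels give both groups the same replicate numbers. The deviations of equally numbered arrays correlated at 0.26 across probe sets, but 2 pairs do not establish pairing. With a replicate block the Foxk1 difference was 1.57 (SE 0.23), with 0 probe sets past the threshold and 297 at an unadjusted p under 0.05.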

Other observations

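Some genes of the lists were separated by replicate number and not by group, a pattern chosen after the values were seen. Foxd1, a forkhead factor of stromal cells, read 33.4 and 129.8 on replicates 1 and 2 with Men1, against 29.1 and 191.9 with vector. Setdb1 read 188.6 and 348.1 with Men1, against 221.8 and 409.8 with vector, low on replicate 1 of both groups. Tbl1xr1, a subunit of NCoR, read 118.8 and 193.8 with Men1, against 108.9 and 243 with vector. The reverse held for Hipk1, with 53.3 and 8.9 with Men1, against 39 and 7.7 with vector. Both Hipk1 signals on replicate 2 were below the control level. It also held for the autophagy receptor Sqstm1, with 786.3 and 552.1 with Men1, against 796.9 and 516.3 with vector. What the replicate number stands for is not given in the labels.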
